A study of Homo sapiens with 12 samples.

Results

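The control line of this series is an HMLE culture carrying a control construct, described here from its 3 libraries alone, out of 12 libraries in the series. The HMLE line was made from mammary epithelial cells of human origin, immortalised by the telomerase catalytic subunit together with the SV40 large and small T antigens. The 3 libraries were those whose titles name the control, and no other line was compared with them. All were labelled with the genotype Control and the treatment None, and all had undergone puromycin selection, as had the rest of the series. The series was set up to study HORMAD1 and CT83, germline genes introduced into the other lines of the series. The labels do not say that the 3 replicates were separate cultures, so the spread given here may be technical, and the group is a single line.

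The mammary gland has a bilayered epithelium. Its outer basal cells make keratins 5 and 14, the transcription factor p63 and the laminin-332 and integrin alpha-6 beta-4 proteins that anchor them to the basement membrane, and in the gland they also contract to expel milk. Its inner luminal cells make keratins 7, 8, 18 and 19, and some of them carry the oestrogen and progesterone receptors. Cultured mammary epithelial cells often carry features of both layers, and the levels of their marker genes show which of them are found.

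Polyadenylated RNA was sequenced to 13322838, 11359326 and 12094351 expected counts in replicates 1, 2 and 3. Levels are given as CPM, each count scaled to the library total. For the 20 leading genes, the ranks of the markers, list medians, keratin sums and ratios, they are given per transcript length as TPM. TPM uses the median length of a gene's protein-coding transcripts unless another length is named. The highest members of lists and families, and the highest noncoding entries, were picked by CPM, not corrected for length. A gene was called detected at 1 CPM or more in each of the 3 libraries, and listed at 0 where it had 0 counts in all 3. A count of 0 allows a level of up to 0.225, 0.264 and 0.248 CPM in replicates 1, 2 and 3, from 3 counts, and covers counting error only. Of 19871 protein-coding genes, 11182 (56.3%) were detected, 4895 (24.6%) were listed at 0 and 3794 (19.1%) fell between. Protein-coding genes held 91.7 ± 0.0416% of the counts (SD, n = 3), and a further 2957 entries of other kinds were detected. A listed 0 was more frequent among the 3319 genes that share exonic bases with another gene on their strand, at 37.6%, than among the 16552 that share none, at 22%.

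The libraries were alike but not identical, and replicate 2 stood somewhat apart. Between pairs, Pearson's r across 11182 detected genes was 0.9898 for replicates 1 and 2, 0.9945 for 1 and 3, and 0.9873 for 2 and 3, a value across genes that are not independent replicates. The chi-square per degree of freedom was 6.85, 2.54 and 7.70 for the same pairs, where counting noise alone gives a value near 1, so each pair differed by more than that noise. Over genes at a mean of 10 CPM or more, the median coefficient of variation was 6.26%, and it was 3.88% without replicate 2. By level, this spread was 17.3% against a counting error of 14.1% at 1 to 10 CPM, 6.97% against 4.88% at 10 to 100 CPM and 4.54% against 2.2% at 100 to 1000 CPM. Of 8782 such genes, 182 had a coefficient of variation of 30% or more, a limit chosen after the values were seen, and 180 of these were highest in replicate 2. Their median longest protein-coding transcript was 7550 nucleotides, against 3500 for all 8782 genes.

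The genes that varied most between the replicates encode large proteins. The proliferation antigen gene MKI67 stood at 23.3, 137 and 19.2 CPM in replicates 1, 2 and 3, the widest relative spread in the set. PLEC, which encodes the cytoskeletal linker plectin, stood at 165, 570 and 140 CPM. The histone methyltransferase gene KMT2D stood at 7.06, 22.5 and 3.97 CPM. Each of these genes was highest in replicate 2 and lowest in replicate 3. The remaining members of the 10 most variable genes, among them SPEN, RRBP1, HSPG2, EP400, NUMA1 and PPL, were also all highest in replicate 2, and all 10 have a longest transcript of at least 5041 nucleotides. The part of transcript length in this spread was not tested.

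**Figure D1:**
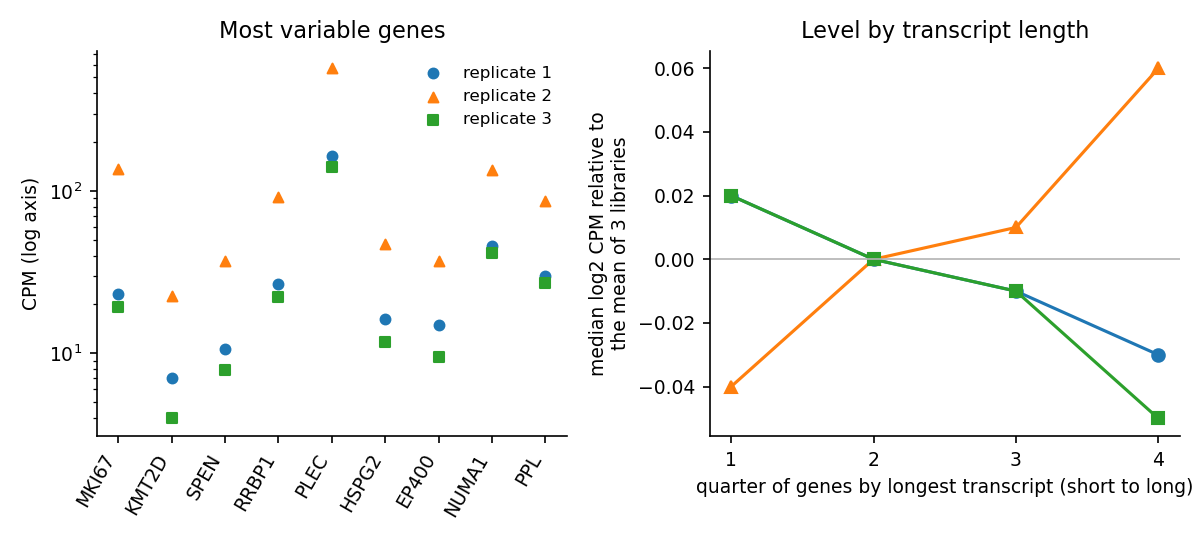
Left, level of 9 of the 10 most variable protein-coding genes in each control library (CPM, log axis), 1 symbol per replicate; replicate 2 is highest for each, as for MKI67 at 137 CPM against 23.3 and 19.2 CPM. Right, the median log2 CPM of each replicate relative to the mean of the 3 libraries, over genes at 10 CPM or more in 4 equal bins by longest transcript, which for replicate 2 is -0.04 in the bin of shortest transcripts and 0.06 in that of the longest.

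The control cells had the genes named for their cell type. KRT5, the basal type II keratin, stood at 3032, 3058 and 3071 CPM in replicates 1, 2 and 3. KRT7, a simple-epithelial keratin found in luminal cells, stood at 3846, 3917 and 4045 CPM, and shares 7.67% of its exonic bases with the antisense entry KRT7-AS. TP63, which encodes the basal master regulator p63, stood at 139, 132 and 143 CPM. All 3 markers were present in every library with little spread, at means of 3054 ± 20, 3936 ± 101 and 138 ± 5.91 CPM (SD, n = 3). Per length, with the median, union and longest lengths, KRT5 ranked 5, 33 and 38 among protein-coding genes, KRT7 ranked 9, 17 and 8, and TP63 ranked 1975, 2448 and 2456. The promoter of KRT5 is shown here together with that of ENO1, the most abundant nuclear gene for which a promoter was at hand, because both genes are very abundant and the windows differ in base composition. Each covers 250 bases before and 50 after the start from RefSeq on GRCh38.p14, on the minus strand, ENO1 at chr1:8878637-8878936 and KRT5 at chr12:52520345-52520644, with CpG dinucleotides in capitals.
ENO1: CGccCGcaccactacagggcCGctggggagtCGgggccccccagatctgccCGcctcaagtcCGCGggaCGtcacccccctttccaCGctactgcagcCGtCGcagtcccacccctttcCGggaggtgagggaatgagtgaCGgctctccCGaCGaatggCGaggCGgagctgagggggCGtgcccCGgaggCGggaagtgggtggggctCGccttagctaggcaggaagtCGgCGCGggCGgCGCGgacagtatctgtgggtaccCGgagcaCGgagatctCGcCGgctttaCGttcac
KRT5: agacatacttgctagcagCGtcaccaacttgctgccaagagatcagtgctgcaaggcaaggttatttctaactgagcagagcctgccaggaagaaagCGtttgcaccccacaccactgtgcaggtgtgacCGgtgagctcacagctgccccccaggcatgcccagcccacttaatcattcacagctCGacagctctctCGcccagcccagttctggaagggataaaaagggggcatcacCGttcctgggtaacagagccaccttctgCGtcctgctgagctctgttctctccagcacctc

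The ENO1 window holds 32 CpG dinucleotides, an observed over expected ratio of 0.882, and its GC content is 69.7%. The KRT5 window holds 7, a ratio of 0.301, with a GC content of 56.3%. Among 27305 human promoter windows of this length, 49% reach a ratio of 0.6, so ENO1 lies in that share and KRT5 does not. These windows are the first listed for each gene and are not limited to protein-coding genes.

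On the TPM scale ACTB, the beta-actin gene, led with 13913 ± 102 TPM, followed by ENO1, which encodes a glycolytic enolase, at 8663 ± 227 TPM and TUBA1B, an alpha-tubulin gene, at 7088 ± 422 TPM (SD, n = 3 each). ANXA2, which encodes a membrane-binding annexin, reached 6971 ± 248 TPM, KRT5 6853 ± 82.3 TPM, the elongation factor gene EEF1A1 6657 ± 289 TPM and the actin-sequestering thymosin gene TMSB10 6248 ± 245 TPM. The ribosomal protein genes RPS3, RPL35, RPS2, RPL8, RPLP0, RPS3A and RPL5 were 7 of the 20 leading genes, and KRT7, GAPDH, ACTG1, FTH1, PABPC1 and S100A2 completed them. Of the 19 neighbouring pairs in this order, 14 overlapped in their 3-library ranges and so cannot be ordered beyond their spread. The order also rests on transcript length: with the union of a gene's exons as length, 11 of the 20 genes were kept, and with its longest transcript 16, while ACTB, ACTG1, EEF1A1, GAPDH, KRT7, RPL35, RPL8, RPS2 and TMSB10 led under all 3 lengths. TUBA1B shares 36.6% of its exonic bases with the antisense entry TUBA1B-AS1, listed at a mean of 3258 CPM and the highest noncoding entry, and since the use of strand is not stated, their reads cannot be told apart here. The same limit holds for FTH1, GAPDH, KRT7, TMSB10, RPL5 and RPS3A, which share exonic bases with opposite-strand entries. In the same order, these entries were listed at 1299 CPM (BEST1), 2122 CPM (ENSG00000269968), 1303 CPM (KRT7-AS), 2197 CPM (TRABD2A), 2200 CPM (DIPK1A) and 1247 CPM (SH3D19).

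The counts were spread over many genes. The 10 genes with the highest CPM, not corrected for length, held 5.12, 4.93 and 5.24% of the counts in replicates 1, 2 and 3, and the 100 genes with the highest CPM 20.2 ± 0.521% (SD, n = 3). Between 751 and 810 genes were needed to reach the midpoint of the protein-coding counts. Cytosolic ribosomal protein genes took 7.41, 6.87 and 7.35% of the counts, and the 13 mitochondrial mRNAs 0.704, 0.547 and 0.55%. The mitochondrial share was highest in replicate 1, as shown by MT-CO1, a cytochrome oxidase subunit gene, at 2611, 1949 and 2037 CPM.

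**Figure D2:**
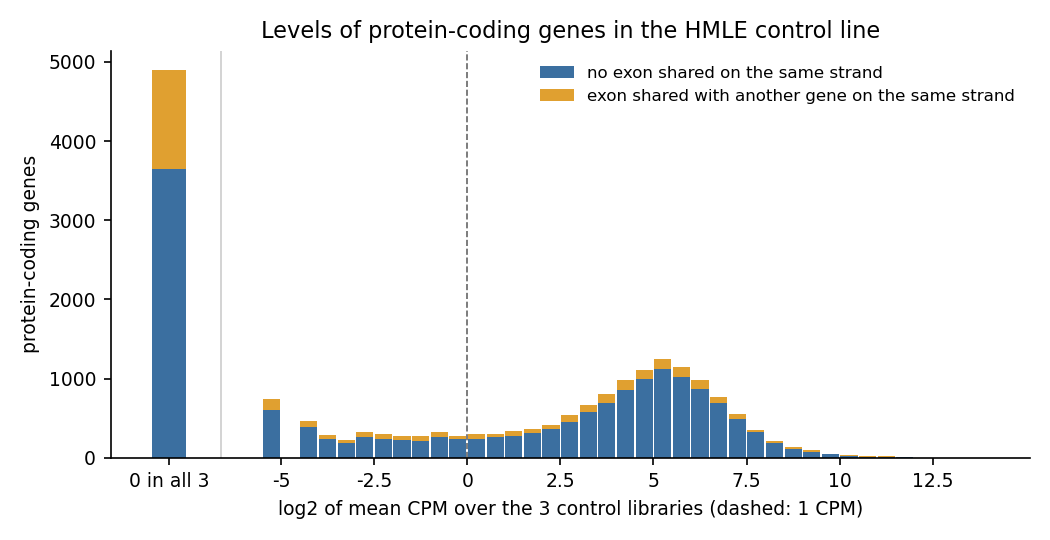
Number of protein-coding genes by the log2 of their mean CPM over the 3 control libraries, with the 4895 genes listed at 0 as a bar of their own at the left and a dashed line at 1 CPM. Bars are stacked into genes that share no exon with another gene on their strand and genes that do, and 3648 of the genes listed at 0 are of the first kind.

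Every listed basal and general epithelial marker was detected. All 18 basal markers and all 22 general epithelial markers were detected, against 56.3% of all protein-coding genes, with a median of 235 TPM for the basal list and 49.6 TPM for the epithelial list, against 2.9 TPM over all protein-coding genes. KRT17 stood at 1680, 1845 and 1804 CPM, KRT14 at 443, 477 and 548 CPM and KRT6A, an activated-keratinocyte keratin, at 2096, 2131 and 2214 CPM. All were present in every library, and KRT14, with a coefficient of variation of 11%, varied the most of them. The laminin-332 genes LAMA3 and LAMB3 averaged 697 ± 132 and 729 ± 128 CPM, and their receptor genes ITGA6 and ITGB4 averaged 833 ± 37.8 and 431 ± 85.3 CPM (SD, n = 3 each). LAMA3, LAMB3 and ITGB4 were each highest in replicate 2. Among cell-cell adhesion genes, CDH1, which encodes E-cadherin, stood at 358, 404 and 363 CPM and CDH3, which encodes the basal P-cadherin, at 566, 607 and 555 CPM. EPCAM, an epithelial adhesion molecule gene, averaged 194 ± 6.3 CPM.

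Contractile genes of basal cells ranged widely in level. Of 10 myoepithelial contractile genes 8 were detected, 80% against 56.3% of all protein-coding genes, at a median of 5.21 TPM against 2.9 TPM. TPM2 and CALD1, actin-binding genes found in many cell types, stood at 203 ± 14.6 and 143 ± 13.8 CPM. ACTA2, the smooth muscle actin gene, stood at 3.68, 4.49 and 4.63 CPM, and CNN1, which encodes calponin, had 1 count in replicate 3 and none in the other replicates. ACTG2 also fell under 1 CPM in every library. OXTR, the oxytocin receptor gene through which milk ejection is signalled, was at 1.95, 1.85 and 2.07 CPM.

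Of 18 luminal markers 12 were detected, 66.7% against 56.3% of all protein-coding genes, and 3 fell between. The other 3, PROM1, KIT and ELF5, were listed at 0, 16.7% against 24.6% of all protein-coding genes. Among the 12 detected, KRT8, KRT18, EPCAM and CLDN4 are also on the general epithelial list. The detected share is therefore not of genes particular to luminal cells. KRT8 at 2393 ± 207 CPM and KRT18 at 1164 ± 86.6 CPM, partners of simple-epithelial filaments, were abundant (SD, n = 3 each), and they share 7.63% and 16.3% of their exonic bases with each other on opposite strands. KRT19, a further luminal keratin, stood at only 0.45, 0.528 and 0.165 CPM. KRT7, KRT8 and KRT18 were high while KRT19 was near the floor in each library. GATA3, a luminal transcription factor gene, was at 11.7, 16.2 and 11.4 CPM. ELF5 and KIT, which mark luminal progenitors, share no exons with another gene on their strand, whereas PROM1 does over 2.23% of its bases.

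Whether basal or luminal keratins prevailed depended on the length used. KRT5, KRT14, KRT15 and KRT17 summed to 9529 ± 235 TPM and KRT7, KRT8, KRT18 and KRT19 to 7827 ± 324 TPM (SD, n = 3), a ratio of 1.23, 1.19 and 1.23 in replicates 1, 2 and 3. With union exon lengths the ratio was 0.902 ± 0.0217 and with longest transcripts 0.664 ± 0.0146, so neither set can be called the higher. The ratio of KRT5 to KRT7 likewise moved between 1.39, 0.74 and 0.538 with the median, union and longest lengths. In bulk RNA a mixture of basal and luminal cells cannot be told apart from cells that carry both sets, nor can fewer cells of a type be told apart from less RNA per cell.

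**Figure D3:**
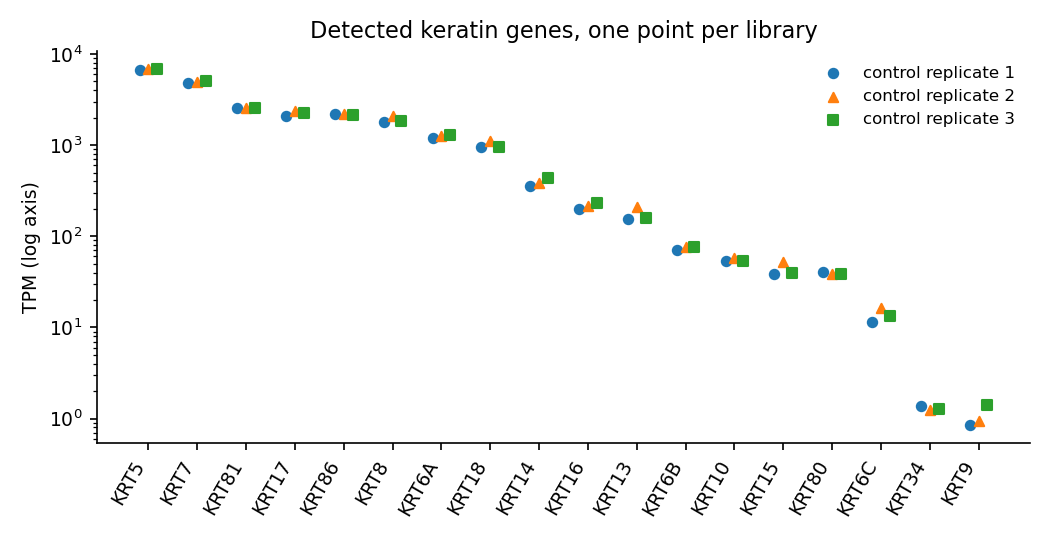
The 18 detected keratin genes in order of their mean level per length (TPM, log axis), 1 symbol per control library. KRT5 at a mean of 6853 TPM and KRT7 at 4917 TPM head the order, which depends on the transcript length used, and KRT34 and KRT9 end it.

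Genes of hormone sensing were partly listed at 0. Of 12 genes of hormone-sensing luminal cells 5 were detected, 41.7% against 56.3% of all protein-coding genes. Those listed at 0 made up 33.3%, against 24.6%. PGR, TFF1 and TFF3 were among them, so the progesterone receptor gene had no count. ESR1, the oestrogen receptor alpha gene, stood at 0.751, 0.88 and 1.24 CPM, with 10 to 15 counts per library, and so was around the detection limit. FOXA1, a cofactor of that receptor, was nonetheless at 11.6, 13.2 and 11.5 CPM. ESR2, the oestrogen receptor beta gene, is not on this list and was detected at 15.4, 26.4 and 11.2 CPM. The growth factor AREG, an oestrogen target in the gland, was also detected at 217 ± 14.3 CPM (SD, n = 3). Milk genes were mostly without counts, with 71.4% of 7 listed at 0 against 24.6% of all protein-coding genes. CSN1S1, CSN2, CSN3, LALBA and BTN1A1 were at 0 and share no exons on their strand, while WFDC2, an epithelial protease inhibitor gene, averaged 18.1 ± 2.19 CPM.

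Of 48 nuclear receptor genes 27 were detected, close to the share over all genes. RXRA, the common partner of many of them, averaged 114 ± 2.45 CPM, ESRRA 114 ± 5.35 CPM and the glucocorticoid receptor gene NR3C1 93.1 ± 2.15 CPM (SD, n = 3 each). Receptors for retinoic acid and vitamin D were also present, with RARG at 55.8, 66.2 and 55.6 CPM and VDR at 69.3, 61.1 and 59.6 CPM. Of 35 growth factor receptor genes 20 were detected, 57.1% and so also near that share, among them AXL, MET, EGFR and TGFBR2 at means of 217 ± 10.5, 209 ± 8.79, 204 ± 23.1 and 177 ± 10.4 CPM. EGFR stood at 195, 231 and 188 CPM, and ERBB2, which encodes its family partner HER2, at 95.2, 105 and 92.5 CPM. Per length, the ratio of EGFR to ERBB2 was 2.02, 1.72 or 1.02 with the median, union or longest length.

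Of 22 mesenchymal genes 13 were detected, 59.1% and so near the 56.3% of all protein-coding genes, and none was listed at 0. The median was 1.81 TPM, under the 2.9 TPM of all protein-coding genes. FN1, the fibronectin gene, stood at 740, 1153 and 749 CPM, highest in replicate 2. VIM, the intermediate filament gene of mesenchymal and many cultured cells, stood at 283, 291 and 307 CPM and SPARC, a matrix protein gene, at 192, 194 and 207 CPM. SNAI2, a repressor that basal mammary cells also carry, averaged 65.9 ± 7.06 CPM (SD, n = 3). The other EMT regulator genes were low: TWIST1 averaged 6.65 ± 0.722 CPM, while ZEB1 at 1.05, 1.58 and 0.744 CPM and ZEB2 at 0.901, 0.88 and 1.32 CPM straddled the limit. CDH2, which encodes N-cadherin, averaged 25.7 ± 1.63 CPM, and CDH1 exceeded it per length by 3.28, 11.7 or 13 times with the median, union or longest length. The ratio of CDH1 to VIM was 0.508, 1.07 or 0.558 with the same lengths, so CDH1 was not the higher under each of them.

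Some matrix genes were highest in replicate 3. COL1A2, a chain of type I collagen, stood at 0.15, 0.088 and 18.5 CPM in replicates 1, 2 and 3. COL1A1, the partner chain, stood at 19.6, 14.9 and 42.6 CPM, and COL3A1, of type III collagen, at 0.901, 0.88 and 6.45 CPM. In each case replicate 3 was highest, and for COL1A2 and COL3A1 the other replicates were under 1 CPM. COL6A2 at 0.976, 0.44 and 4.55 CPM, COL6A1 at 4.43, 5.11 and 6.61 CPM and FBN1, the fibrillin gene, at 2.93, 2.29 and 7.69 CPM were also highest there. Other fibrillar collagen genes were not: COL5A1 at 4.5, 7.75 and 6.95 CPM, COL5A2 at 8.86, 11.2 and 7.77 CPM and COL27A1 at 6.98, 15.3 and 6.61 CPM were highest in replicate 2. These genes were chosen after their values were seen. Beside these values, the fibroblast list had FAP at 19.2, 22.2 and 19.4 CPM, FBLN1 at 75.3, 88 and 56.8 CPM and PDGFRB at 2.33, 1.76 and 1.57 CPM, none of them highest in replicate 3. MFAP5, the remaining detected member, was highest in replicate 3 at 1.28, 1.06 and 2.65 CPM. Of the 10 members 4 were detected, 40% against 56.3% of all protein-coding genes. A further 5 fell between and 1, DPT, was listed at 0. The list summed to 101, 115 and 82.8 CPM, mostly from FBLN1 and FAP, so the sum says little of the other members. Among those between, COL6A3 was highest in replicate 3, at 1.13, 0.968 and 1.82 CPM, and DCN was lowest there, at 1.05, 0.352 and 0.248 CPM. The defining fibroblast genes DCN and LUM averaged 0.55 ± 0.437 and 0.329 ± 0.226 CPM (SD, n = 3 each), at 1 to 14 counts per library.

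**Figure D4:**
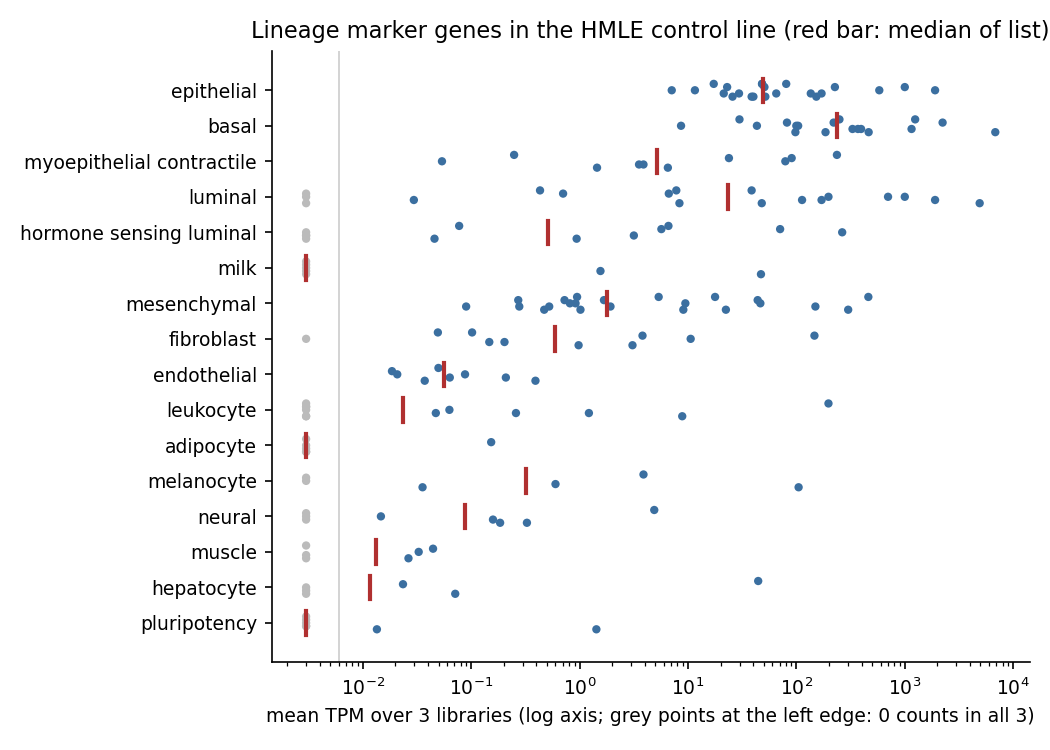
Mean level per length (TPM over 3 libraries, log axis) of each member of the 16 lineage marker lists, 1 point per gene, with a red bar at the median of the list and grey points at the left edge for genes with 0 counts in all 3 libraries. The basal and epithelial medians of 235 and 49.6 TPM are the furthest to the right, and the milk, adipocyte and pluripotency medians are at 0.

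Most markers of other cell types were low or at 0. Endothelial genes had 0 of 8 detected and all 8 between, adipocyte genes 0 of 6 and skeletal muscle genes 0 of 6. Of all protein-coding genes 56.3% were detected. Of 12 leukocyte genes 50% were listed at 0, against 24.6% of all protein-coding genes. CD3D, MS4A1, LYZ, NKG7 and the pan-leukocyte gene PTPRC were among these, and CD14 was at 6.38, 5.37 and 5.71 CPM. CSF1R, a macrophage receptor gene, was high at 118, 129 and 159 CPM, and RPL7P1, a ribosomal pseudogene on the opposite strand within its span, was listed at 107, 134 and 146 CPM. PMEL, a melanosome gene, averaged 93.4 ± 3.21 CPM (SD, n = 3), and CDK2, its opposite-strand neighbour, stood at 120, 118 and 127 CPM. Of the 6 melanocyte genes MITF was also detected, at 6.15, 4.93 and 5.37 CPM, while TYR and DCT were at 0. Of 8 neural genes 1, GFAP, was detected, at 3.75, 4.23 and 4.05 CPM. SERPINA1, the alpha-1-antitrypsin gene, averaged 50.4 ± 1.26 CPM with no gene inside its span, beside ALB, APOA1 and TTR at 0. POU5F1, at 1.2, 1.5 and 1.24 CPM, has near-identical copies elsewhere, and NANOG and SOX2 were at 0. TCF19, the opposite-strand neighbour of POU5F1, stood at 35.7, 35.6 and 38.6 CPM. Whether reads of the neighbours supplied the CSF1R, PMEL and POU5F1 values was not tested.

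The germline genes that the study put into the other lines had no counts in the control. HORMAD1, which encodes a meiotic chromosome protein, and CT83, a cancer/testis antigen gene, had 0 counts in each of the 3 libraries, and neither shares exons with another gene on its strand. Of 29 cancer/testis genes 20 were listed at 0, against 24.6% of all protein-coding genes, 8 fell between and 1, SYCP3, was detected. SYCP3, of the synaptonemal complex, stood at 5.03, 5.19 and 5.87 CPM and shares 14.8% of its bases with CHPT1 on the other strand, listed at a mean of 40.4 CPM. TEX15 followed at 0.375, 0.352 and 0.496 CPM. The genes listed at 0 included MAGEA1, MAGEA3, MAGEA4, CTAG1B, PRAME and DAZL. The promoters of BRDT, a testis bromodomain gene, at chr1:91949121-91949420, and CT45A1, an antigen gene of the X chromosome, at chrX:135713389-135713688, both on the plus strand, are shown because both genes were listed at 0 and their windows differ in composition, again with CpG dinucleotides in capitals (RefSeq, GRCh38.p14).
BRDT: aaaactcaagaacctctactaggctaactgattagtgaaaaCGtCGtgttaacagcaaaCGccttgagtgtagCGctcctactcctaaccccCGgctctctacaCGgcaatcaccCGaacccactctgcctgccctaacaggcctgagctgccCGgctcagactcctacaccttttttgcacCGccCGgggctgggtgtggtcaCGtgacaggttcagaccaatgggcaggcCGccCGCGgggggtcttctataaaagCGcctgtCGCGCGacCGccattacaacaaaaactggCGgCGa
CT45A1: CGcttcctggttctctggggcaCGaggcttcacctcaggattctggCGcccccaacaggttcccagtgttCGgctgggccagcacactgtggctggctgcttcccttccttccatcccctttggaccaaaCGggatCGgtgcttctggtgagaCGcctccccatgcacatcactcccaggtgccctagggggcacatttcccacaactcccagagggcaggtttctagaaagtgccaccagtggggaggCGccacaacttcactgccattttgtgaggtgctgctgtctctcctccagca

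The BRDT window holds 21 CpG dinucleotides, a ratio of 0.872 that is close to that of the abundant ENO1, and the CT45A1 window 8, a ratio of 0.298 close to that of the abundant KRT5. Among the 15 cancer/testis genes listed at 0 with a promoter at hand, 4 reached the ratio of 0.6 and 11 did not. Of the 27305 windows, which are not limited to protein-coding genes, 49% reached it. No further comparison of promoters by level was made, since fewer than 80% of the protein-coding genes listed at 0 had a promoter at hand (73.3%).

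Cell cycle genes were detected throughout. All 22 proliferation genes were detected, against 56.3% of all protein-coding genes, at a median of 139 TPM. They included MCM7, of the replication helicase, at 548, 552 and 567 CPM, RRM2 at 455, 416 and 454 CPM and TOP2A at 352, 374 and 339 CPM. Unlike MKI67, these varied little between replicates. RB1, whose protein the SV40 large T antigen binds, and the cell cycle inhibitor genes CDKN2A and CDKN1A averaged 101 ± 6.35, 189 ± 12.8 and 178 ± 10.1 CPM (SD, n = 3 each). TERT, which encodes the telomerase catalytic subunit, was at 9.38, 9.51 and 10 CPM, and transcripts of the introduced and the resident gene cannot be told apart. Of 35 genes of secreted factors 33 were detected, 94.3% against 56.3% of all protein-coding genes. Among them were THBS1 at 2432 ± 203 CPM, PLAU at 544 ± 56.8 CPM and MMP14 at 324 ± 30.6 CPM. THBS1 and PLAU share exonic bases with opposite-strand entries, so their values are uncertain.

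Of 1014 members of 16 gene families 220 were detected, beside 56.3% of all protein-coding genes. The members include 548 of 4 families used mainly in other tissues, none of which was detected. Keratins had 18 of 55 detected, 32.7% against 56.3% of all protein-coding genes, and besides KRT5, KRT7 and KRT17, the hair keratin entries KRT81 and KRT86 were listed at 3267 ± 27.2 and 3391 ± 54.4 CPM (SD, n = 3), but as near-identical copies these are uncertain. Claudins had 5 of 24 detected, or 20.8%, among them CLDN4 at 118 ± 5.95 CPM and CLDN1 at 44.9 ± 3.98 CPM. Integrins had 15 of 26 detected, 57.7% and so near the share of all protein-coding genes, and laminins 10 of 12, or 83.3%, among the integrins ITGB1, ITGA6 and ITGA3 at 863 ± 46.2, 833 ± 37.8 and 770 ± 44.6 CPM. Of 44 collagens 17, or 38.6%, were detected, among them the hemidesmosomal COL17A1 and the basement membrane COL4A2 at 264 ± 53.4 and 112 ± 54.4 CPM, both highest in replicate 2. S100 genes had 11 of 19 detected, 57.9% and so near the overall share, among them S100A2 at 1507 ± 133 CPM.

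HOX genes, which set positional identity along the body axis, were mostly listed at 0. Of 39 members 9 were detected, 23.1% against 56.3% of all protein-coding genes, and 26 were listed at 0, 66.7% against 24.6%. The HOXA cluster on chromosome 7 had HOXA2, HOXA3 and HOXA7 among its detected members, the HOXB cluster on chromosome 17 had HOXB2, HOXB3 and HOXB7, the HOXC cluster on chromosome 12 had HOXC4 and HOXC13, and the HOXD cluster on chromosome 2 had none of 9. HOXB2 was at 18.9, 19.1 and 19.1 CPM and HOXC13 at 14.6, 14.4 and 14.1 CPM, the steadiest members. HOXA3, at 13.4, 20.3 and 13.4 CPM, was highest in replicate 2. HOX genes share exons with neighbours: of those with none shared, 6 of 23 were detected and 14 listed at 0. Over all protein-coding genes with none shared, 59.3% were detected and 22% listed at 0.

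Families used mainly in other tissues had 0 of 548 members detected, against 56.3% of all protein-coding genes. Olfactory receptors had 368 of 388 listed at 0, taste receptors 25 of 27, beta-defensins 38 of 39 and keratin-associated genes 90 of 94. Of all protein-coding genes 24.6% were listed at 0. Such genes lie in runs along chromosomes. On chromosome 11, 66 consecutive protein-coding genes from OR4B1 to APLNR, between 48216810 and 57237314, were all at 0, of which 57 are olfactory receptors. On chromosome 17, 41 consecutive genes from KRT12 to KRT33B, between 40860943 and 41369800, were not detected, 35 of them at 0 and 34 of them keratin-associated. Chromosome X had 42.1% of its genes detected and chromosome 2 had 62.1%.

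Some genes of basic cell machinery were listed at 0. Among 227 genes of the ribosome, proteasome, mitochondrial ribosome and respiratory complex I, picked by their symbols, 18 were listed at 0 and 25 averaged under 1 CPM. RPS10, RPL17, RPL36A and PSMA2 were among them. Of the 227, 158 share no exonic bases with another gene on their strand and 157 of these were detected, with NDUFB5 the exception at 0. The other 69 do share bases, and 45 of them were detected. Over all protein-coding genes, 10.9% were detected and 58.9% listed at 0 where over 50% of exonic bases are shared, against 59.3% detected and 22% at 0 among the 16552 with no sharing. Where above 0 and up to 10% of bases are shared, 64.9% were detected and 19.2% listed at 0. Machinery genes of this low band went both ways. RPL36A, sharing 8.4%, and MRPS6, sharing 9.61%, were listed at 0, and NDUFA11, sharing 9.65%, averaged 0.218 CPM. RPS3, RPL8 and RPL5, sharing 2.29, 1.34 and 2.56%, were detected. Leaving out the sharing genes left 3648 genes listed at 0 in place of 4895, and 9810 detected in place of 11182. PPP2CA, the catalytic subunit gene of the phosphatase that SV40 small t antigen binds, was also listed at 0, and with 9.22% of its bases shared it belongs to that low band. What the sharing contributes to these zeros was not tested.

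**Figure D5:**
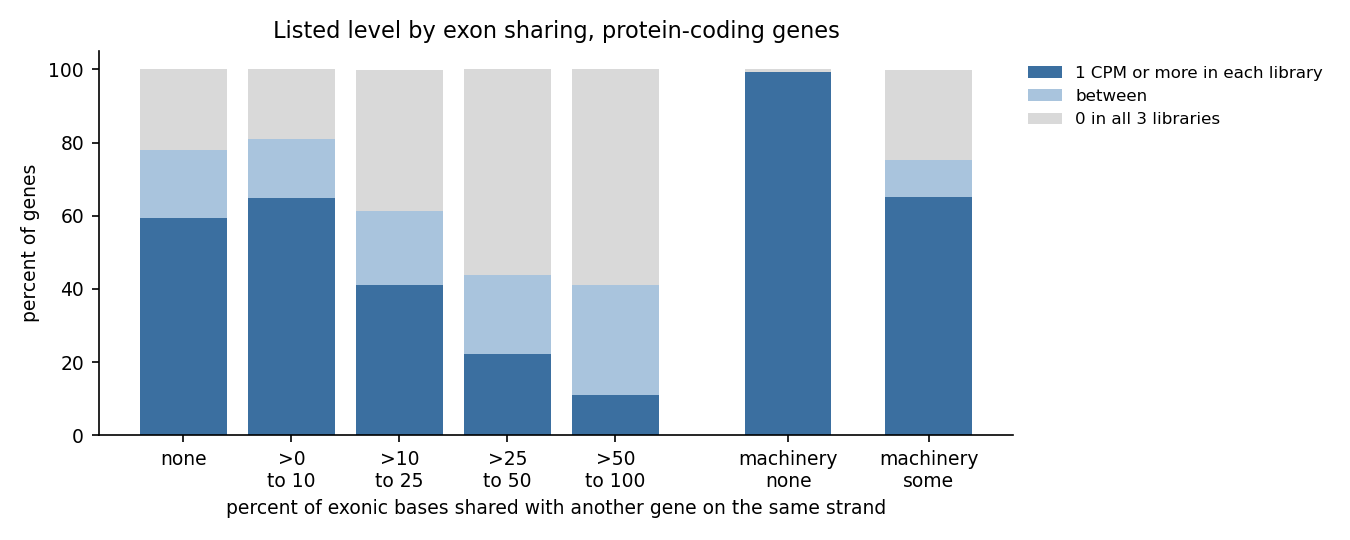
Percent of protein-coding genes detected, between and listed at 0, by the percent of exonic bases shared with another gene on the same strand, with the 227 genes of ribosomes, proteasome and complex I, split into those with no sharing and with some, as the last bars. The part listed at 0 is 22% with no sharing and 58.9% at over 50% sharing.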

How the data were processed

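Polyadenylated RNA of the HMLE control line was measured in 3 libraries, grouped by their titles. The values are expected counts per gene, as deposited by the authors, estimated counts that need not be whole, and 7.02% were not whole. The submitters' processing notes name Trimmomatic 0.39, STAR 2.7.5c, SAMtools and Picard, and both hg38 and hg19 as builds. Which counting tool, annotation release and strand setting made the table is not given in the sources used here. Per the labels' protocols, ERCC spike-ins were added, but the tables hold no ERCC entry, so no spike-in scaling was made.

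The expected counts were rounded and divided by library totals (CPM), and TPM was made with the median length of each gene's protein-coding transcripts in GENCODE 29, scaled over protein-coding genes. Of the gene entries, 58356 are in GENCODE 29, and the other 3177 held 0.408% of the counts. Exon sharing was read from GENCODE 29, so sharing that exists only in the unknown release used for counting would be missed. With 1 group no test was made; values are given with the SD of 3 libraries. Python 3.11.15, numpy 2.4.6, pandas 2.3.3, scipy 1.17.1, matplotlib 3.10.9, R 4.3.3, edgeR 4.0.16 and DESeq2 1.42.0 were used, the last pair for TMM and size-factor scaling. The spread measures were tested on simulated data.

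The members and lists were chosen with earlier results of these data known. Genes were named by a rule: the 20 highest TPM and 10 highest CPM genes, KRT5, KRT7 and TP63, the 4 highest members of each lineage list and its members at 0 where there were at most 5, the 3 highest of each family, HOX genes by cluster, the 10 most variable genes, the 5 highest noncoding genes and 4 promoters. Further members of the lists, and genes named for shared exons, were chosen after their values were seen. Values of some single genes covered by the rule are left out here.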

Additional observations from a re-analysis of the deposited data

How the results depend on the processing

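Detected protein-coding genes numbered 9690 at a minimum of 5 CPM and 11678 at 0.5 CPM, and genes listed at 0 numbered 3648 without genes sharing exons on their strand, an alternative added after the data were seen, and 6390 where up to 3 counts over the libraries were allowed. With union exon lengths 11 of the 20 leading genes were kept. KRT5 stood at 3075 CPM with mitochondrial genes left out of the total. The median coefficient of variation was 7.57% at a minimum of 1 CPM, and 3.88 to 6.1% with a replicate left out, lowest without replicate 2. The causes were not tested. Of the remaining values for single lists and families, 211 moved little and 13 moved: 8 at 5 CPM, 3 at 0.5 CPM, taste receptors without replicate 3, and detected ribosomal genes, 48 in place of 79 without genes sharing exons. The comparison of promoter composition by level was not run, since too few genes had a promoter. No paired analysis was possible because there is a single group and no test. Depth limits a listed 0 to at most 0.225 to 0.264 CPM, by library.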
